A study of Mus musculus with 6 samples.

Results

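The genes described here encode 8 enzymes of heme biosynthesis, taken in pathway order from the 49671 genes of a count table: Alas1, Alas2, Alad, Uros, Urod, Cpox, Ppox and Fech. They were matched from Ensembl identifiers to mouse symbols, and all 8 were in the table. RNA was sequenced from mouse bone marrow LSK cells of the BALB/c strain, a marrow fraction sorted for Kit and Sca-1 without lineage markers, in which blood stem cells and early progenitors are found. The shCxxc5 group carried a retroviral hairpin that knocks down Cxxc5, and the shCtrl group a retroviral hairpin with no mouse target. Each group had 3 libraries, numbered 2, 3 and 4, each from GFP-positive cells of several pooled animals, with RNA from 20000 to 50000 cells. The ages of the animals, and whether equal numbers mark a shared infection or day, are not stated in the labels.

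Heme synthesis starts in mitochondria, where a 5-aminolevulinate synthase joins glycine and succinyl-CoA. This first step sets the rate of the pathway. Alas1 encodes the form used by most cells, and Alas2, on the X chromosome, the form of red cell precursors. The middle steps run in the cytosol: Alad joins aminolevulinate into porphobilinogen, Uros closes the tetrapyrrole ring and Urod trims its side chains. In mitochondria Cpox then oxidises side chains of the ring and Ppox the ring itself, and Fech inserts iron to give heme. Heme goes to hemoglobin in the erythroid lineage and to cytochromes, catalase and peroxidases in other cells, among them the myeloperoxidase of granulocyte precursors.

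In GRCm38 Alas1 (ENSMUSG00000032786) lies on the minus strand of chromosome 9 from 106233455 to 106248654, and Alas2 (ENSMUSG00000025270) on the plus strand of chromosome X from 150547375 to 150570638. Alad and Urod are on the minus strand of chromosome 4, from 62509169 to 62519918 and from 116989965 to 116994413. Uros lies on chromosome 7 from 133686243 to 133710072 and Ppox on chromosome 1 from 171275990 to 171281186, both on the minus strand. Cpox lies on the plus strand of chromosome 16 from 58670292 to 58717636. All 8 are protein-coding genes, and the counts cover their exons. Exons of Ppox share 791 bases with B4galt3 on the opposite strand, those of Alas1 465 bases with 4930500F10Rik, those of Alas2 311 bases with Apex2 and 61 with Mir3620, and those of Cpox 204 bases with Gpr15. Whether counting used strand is not given in the sources used here, and reads of these partners could be counted in the enzyme genes.

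Promoter stretches are shown for Cpox and both synthase genes, whose values the results turn on most, with the letters of factors known to act on this pathway: GATA1, the master factor of erythroid and megakaryocytic cells, and NRF1, which drives nuclear genes of mitochondrial function. Sequences are from RefSeq (GRCm38.p6), 5′ to 3′ on the gene's strand, with capitals for a match. For GATA the letters GATA were searched with A or T before them and A or G after them, and for NRF1 the letters GCGCA and GCGC with any 1 base between them, both on either strand. The Cpox stretch is the 250 bases before the RefSeq start (chr16:58669958-58670207, plus strand), and its 2 matches share 1 base. The Alas2 stretch is cut where an annotated exon begins (chrX:150547167-150547374, plus strand). The Alas1 line is a site of 30 bases (chr9:106247906-106247935, minus strand).
Cpox promoter: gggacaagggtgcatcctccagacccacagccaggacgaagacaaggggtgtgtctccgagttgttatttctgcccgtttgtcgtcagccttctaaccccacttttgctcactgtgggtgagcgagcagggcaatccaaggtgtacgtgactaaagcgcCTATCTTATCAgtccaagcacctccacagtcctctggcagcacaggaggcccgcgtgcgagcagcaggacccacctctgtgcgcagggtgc
Alas2 promoter: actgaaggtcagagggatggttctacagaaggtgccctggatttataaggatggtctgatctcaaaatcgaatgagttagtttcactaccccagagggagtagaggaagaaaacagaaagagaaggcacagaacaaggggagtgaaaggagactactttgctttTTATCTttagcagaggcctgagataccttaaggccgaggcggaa
Alas1 site: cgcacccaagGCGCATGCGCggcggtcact

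Windows around RefSeq starts (250 bases before and 50 after) were at hand for 7 of the 8 genes. GATA letters were in those of Alas2, Cpox and Uros, against 33.0% of 27025 genes, and NRF1 letters were in those of Alas1 and Uros, against 5.19%. In Alas2 the GATA match began at position -86 from the start, and in Cpox GATA matches began at -91, -86 and 4. Other letters were searched on either strand in the same windows. CACGTG was in those of Alad, Urod and Uros, against 8.09% of genes. CCACNCCC, with N for any base, was in that of Alas2, against 19.7%, and TGATGNAA was in none, against 4.51%. A match describes letters in the window and is not evidence of binding.

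The hairpin's target was lower in every shCxxc5 library: Cxxc5 had 6.74, 17.4 and 17.9 CPM (read counts scaled to a common library size by the trimmed mean of M-values, TMM) in shCxxc5 replicates 2, 3 and 4, against 82.2, 59.9 and 57.9 CPM in shCtrl replicates 2, 3 and 4. Total counts ran from 16558791 to 27754019 in shCxxc5 libraries and from 15002414 to 23285446 in shCtrl libraries. Both libraries numbered 2 differed widely from the remaining 4. Kit, a sort marker, lay between 82.4 and 110.4 CPM in all 6 libraries, but Ly6a, the gene of Sca-1, lay at 33.1 and 46.4 CPM in replicate 2 of shCxxc5 and shCtrl and at 703 CPM or more in the other 4. The replicate 2 libraries thus went against the Sca-1-positive label at the RNA level, so shCxxc5 and shCtrl are also compared in replicates 3 and 4 alone. The pair 2 ratios and the comparisons of replicate 2 with replicates 3 and 4 have no version without these libraries. In bulk RNA, fewer cells of a type and less RNA per cell cannot be told apart. The labels do not say whether the 3 libraries of a group came from infections of their own. The p-values therefore cover only the variation among these libraries, some or all of which may be technical.

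Per kilobase of exon, Alad had the highest mean level, 54.1 ± 5.70 CPM per kb in shCxxc5 and 49.0 ± 3.48 CPM per kb in shCtrl (SD, n = 3 each). Urod stood at 28.3 ± 0.883 in shCxxc5 and 25.1 ± 3.45 in shCtrl, and Alas1 at 34.9 ± 31.9 in shCxxc5 and 18.8 ± 2.24 in shCtrl, in the same unit. In 5 of 6 libraries the order was Alad, then Urod, then Alas1. In shCxxc5 replicate 2 Alas1 came first, at 71.7 CPM per kb, against 60.1 for Alad. Cpox, Uros and Ppox lay lower, between 4.06 and 14.1 CPM per kb over the 6 libraries, with ranges that overlapped, so their order is not settled beyond the spread between libraries. Fech, the last enzyme, lay between 1.94 and 3.32 CPM per kb, below Ppox in all 6 libraries, and Alas2 came last in all 6, at 0.679 CPM per kb or less. The order depends on the lengths, which join all annotated exons of a gene (13838 bases for Fech, 1871 for Alad). Which transcripts were expressed was not determined. In CPM, without length, Fech lay above Ppox and Alas1 above Urod in all 6 libraries.

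**Figure D1:**
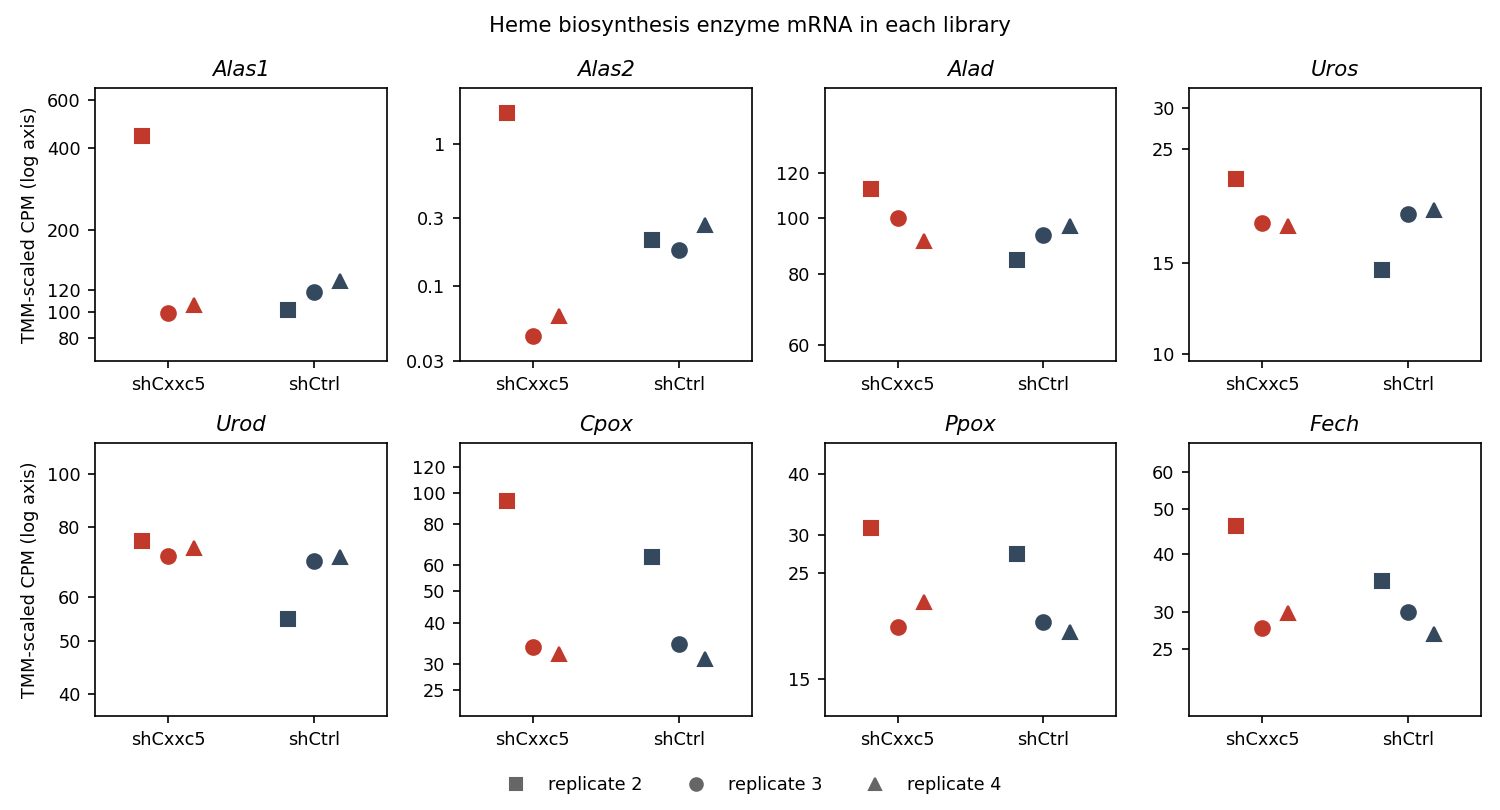
TMM-scaled CPM (log axis) of each enzyme gene in the 3 shCxxc5 libraries (red) and the 3 shCtrl libraries (dark), with the marker shape giving the replicate number. Alas1 and Alas2 are far higher in shCxxc5 replicate 2 (443 and 1.63 CPM) than in any other library, and Cpox, Ppox and Fech are higher in both replicate 2 libraries.

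Alas1, the entry enzyme, had 443, 98.4 and 105 CPM in shCxxc5 replicates 2, 3 and 4, against 102, 118 and 129 CPM in shCtrl replicates 2, 3 and 4. The other 5 libraries lay close together and shCxxc5 replicate 2 far above them, so the groups overlapped. Within the pairs of equal number the log2 ratio of shCxxc5 over shCtrl was 2.12 in pair 2 (95% counting interval 2.06 to 2.19), -0.26 in pair 3 (-0.35 to -0.18) and -0.29 in pair 4 (-0.39 to -0.20). These are a 4.36-fold higher level in pair 2 and levels of 0.833 and 0.817 of the control in pairs 3 and 4. The intervals, from an exact conditional binomial, cover counting error only. Of all counts of the 8 enzymes (as CPM), Alas1 held 53.6% in shCxxc5 replicate 2, 26.7% and 28.4% in shCxxc5 replicates 3 and 4, and 26.6%, 30.8% and 32.8% in shCtrl replicates 2, 3 and 4. Relative to Alad, the enzyme that uses its product, Alas1 stood at 3.94 in shCxxc5 replicate 2 and between 0.983 and 1.33 in the other 5 libraries.

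Alas2, the erythroid form, had 47, 1 and 1 counts in shCxxc5 replicates 2, 3 and 4, against 5, 4 and 4 counts in shCtrl replicates 2, 3 and 4. That is 1.63, 0.0446 and 0.0617 CPM in shCxxc5 and 0.211, 0.178 and 0.269 CPM in shCtrl. It was close to the detection limit in all libraries but shCxxc5 replicate 2. The ratio was 7.73 in pair 2 (95% counting interval 3.09 to 24.9), 0.250 in pair 3 (0.00507 to 2.53) and 0.229 in pair 4 (0.00466 to 2.32), so a difference was not detectable at this depth in pairs 3 and 4. Apex2, its partner on the opposite strand, lay between 13.6 and 15.5 CPM in shCxxc5 and between 10.6 and 13.1 CPM in shCtrl, with 14.3 CPM in shCxxc5 replicate 2. Of the reads of both synthase genes, Alas2 held 0.367% in shCxxc5 replicate 2 (exact binomial 95% interval 0.270 to 0.488%) and from 0.0453% to 0.208% elsewhere. Alas2 did not pass the filter on low counts and is absent from the tests below.

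**Figure D2:**
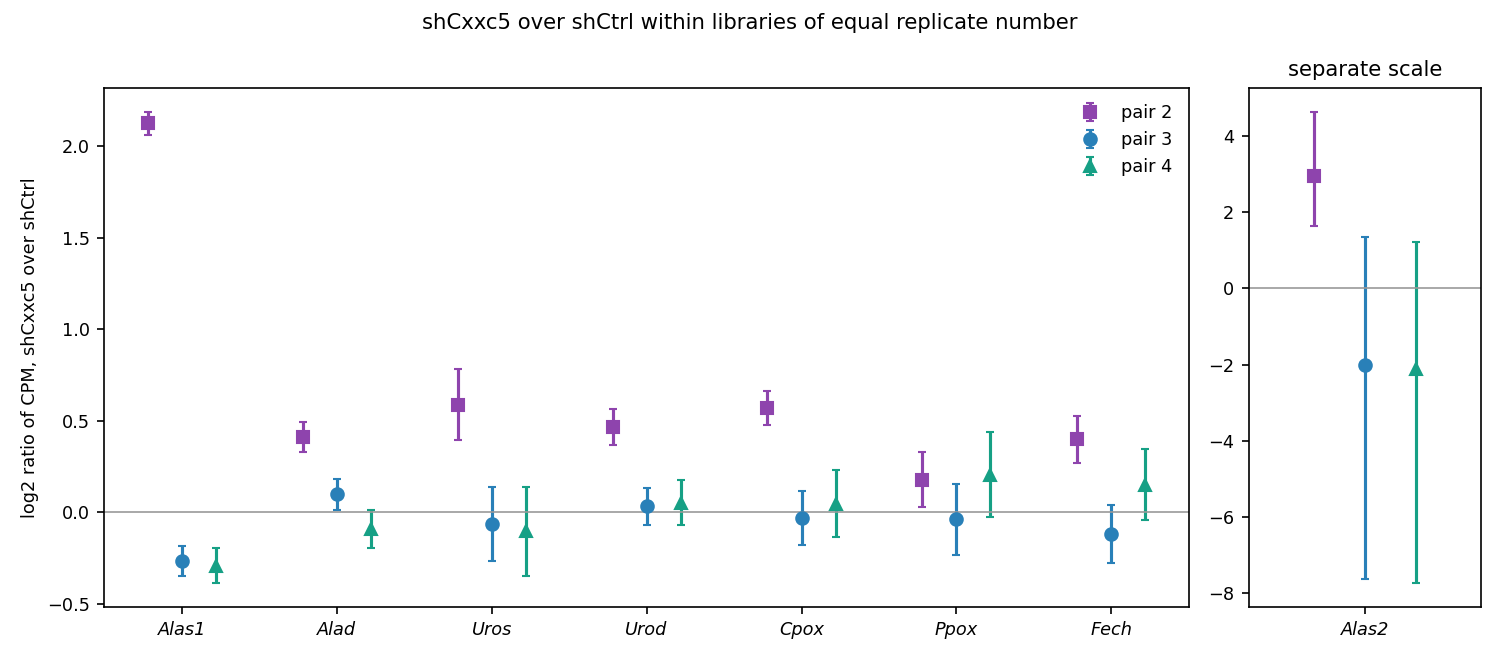
Log2 ratio of CPM, shCxxc5 over shCtrl, within replicate numbers 2, 3 and 4, with 95% counting intervals (exact conditional binomial); Alas2 has a scale of its own. All 8 enzymes lie above 0 in pair 2, from 0.18 for Ppox to 2.95 for Alas2, and spread around 0 in pairs 3 and 4, with Alas1 below 0 in both.

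Among the cytosolic enzymes, Alad had 112, 100.1 and 91.1 CPM in shCxxc5 replicates 2, 3 and 4, against 84.5, 93.6 and 97.1 CPM in shCtrl replicates 2, 3 and 4. Uros had 21.9, 17.9 and 17.7 CPM in shCxxc5, against 14.5, 18.7 and 19.0 CPM in shCtrl. In both genes the highest and the lowest library were the replicate 2 libraries of shCxxc5 and shCtrl. Urod, the uroporphyrinogen decarboxylase, had 75.6, 71.1 and 73.6 CPM in shCxxc5, against 54.8, 69.5 and 70.9 CPM in shCtrl. Urod was the only enzyme whose groups did not overlap, with a lowest value of 71.1 in shCxxc5 and a highest value of 70.9 in shCtrl, where 6.72% of all tested genes were higher without overlap. It was also the only one with a ratio above 0 in all 3 pairs (0.47, 0.03 and 0.05 on the log2 scale), as were 18.9% of all tested genes.

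At the mitochondrial end of the pathway both replicate 2 libraries were high. Cpox, the coproporphyrinogen oxidase, had 94.3, 33.7 and 32.1 CPM in shCxxc5 replicates 2, 3 and 4, against 63.4, 34.5 and 31.1 CPM in shCtrl replicates 2, 3 and 4. Ppox, the protoporphyrinogen oxidase, had 31.0, 19.3 and 21.7 CPM in shCxxc5, against 27.3, 19.8 and 18.8 CPM in shCtrl. For both, the other 4 libraries lay close together with no split by hairpin. Fech, the ferrochelatase gene on the minus strand of chromosome 18 from 64452914 to 64490251, had 46.0, 27.7 and 29.9 CPM in shCxxc5, against 34.9, 30.1 and 26.9 CPM in shCtrl. B4galt3, which overlaps Ppox, lay between 35.2 and 40.3 CPM in all 6 libraries and did not part replicate 2 from the others, and Gpr15, which overlaps Cpox, stayed at or under 0.718 CPM.

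In pair 2 all 8 enzymes were higher in the shCxxc5 library. Their median log2 ratio was 0.52, or 0.47 for the 7 tested enzymes. The median of the 14637 tested genes was -0.04, and 46.2% of them were above 0. In pair 3, 2 of 8 were higher and 6 lower (median -0.05), and in pair 4, 4 were higher and 4 lower (median -0.02). For the 7 tested enzymes the medians were -0.04 in pair 3 and 0.05 in pair 4. Over all genes the median was -0.01 in both pairs. Without Alas2, the ratios of pairs 3 and 4 ran from -0.29 to 0.21. All 8 shared a direction in pair 2 and not in pairs 3 and 4. In pair 2 Alas1, at 2.12, exceeded the next tested enzyme, Uros at 0.59, by a wide margin.

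Over all 6 libraries, the comparison of shCxxc5 with shCtrl called 0 of the 7 tested enzymes by edgeR's quasi-likelihood test (0 at an unadjusted p under 0.05, and 0 in DESeq2), and 0% of all 14637 genes (575 at an unadjusted p under 0.05, and 19 called in DESeq2). For Alas1 edgeR gave 0.89 on the log2 scale (SE 0.61, adjusted p = 0.940), from a mean of 216 ± 197 CPM in shCxxc5 and 116 ± 13.8 CPM in shCtrl (SD, n = 3 each). The other 6 ran from 0.13 for Ppox (SE 0.24) to 0.31 for Cpox (SE 0.51). Alas1 turned to -0.19 and Cpox to -0.38 without shCxxc5 replicate 2.

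In replicates 3 and 4 alone, Alas1 fell in shCxxc5 cells and was the only enzyme called. Its log2 fold change was -0.27 (SE 0.05), with an adjusted p of 0.000174 in edgeR's quasi-likelihood test, and its level was 0.833 and 0.817 of the control in pairs 3 and 4. Of all 14193 genes, 9.00% were called lower and 20.0% in either direction, so 1 called enzyme of 7 is a share near that of all genes. The other tested enzymes stood at 0.08 for Ppox (SE 0.09), 0.05 for Urod (SE 0.05), 0.02 for Alad (SE 0.05), 0.01 for both Cpox (SE 0.08) and Fech (SE 0.08) and -0.08 for Uros (SE 0.09), with adjusted p from 0.596 to 0.975. Without each of the 4 libraries in turn Alas1 was called each time, at log2 fold changes from -0.34 to -0.21, with 1 library left in the reduced arm. Opposite to Alas1, 4930500F10Rik on the other strand had 7 and 5 counts in shCxxc5 and 4 and 7 counts in shCtrl, against 1707 to 2651 counts of Alas1.

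The replicate 2 libraries, set against replicates 3 and 4 with the hairpin in the fit, had higher levels of the last 3 enzymes. Cpox was higher by 1.24 on the log2 scale (SE 0.13, adjusted p = 0.00115 in edgeR), Ppox by 0.55 (SE 0.09, adjusted p = 0.00571) and Fech by 0.49 (SE 0.11, adjusted p = 0.0177). Over all genes 17.7% were called higher and 18.7% lower. The call of Fech was lost without shCxxc5 replicate 3 (adjusted p = 0.0630), shCxxc5 replicate 4 (0.0615) or shCtrl replicate 4 (0.0608), and its value was 0.28 without shCxxc5 replicate 2. Alas1 stood at 1.09 (SE 0.50), Alad at 0.03 (SE 0.10), Uros at -0.02 (SE 0.16) and Urod at -0.14 (SE 0.10), and none of these passed. For these 4 the value depended on which library numbered 2 was kept, in fits that leave 1 library of that number and take it to vary like replicates 3 and 4. With shCtrl replicate 2 as the lone library of that number Alas1 was lower by 0.28, Uros by 0.38, Urod by 0.36 and Alad by 0.17 (values of -0.28, -0.38, -0.36 and -0.17). With shCxxc5 replicate 2 as the lone one they stood at 2.12, 0.29, 0.07 and 0.23.

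The shCxxc5 effect differed between replicate 2 and replicates 3 and 4 for 6 of 7 tested enzymes, each with a larger ratio in pair 2. The difference was 2.40 for Alas1 (SE 0.08, adjusted p = 8.06e-27 in edgeR), which ranked 268 of 14637 genes by its size. It was 0.67 for Uros (SE 0.16), 0.57 for Cpox (SE 0.11), 0.42 for Urod (SE 0.09), 0.40 for Alad (SE 0.08) and 0.40 for Fech (SE 0.13), with adjusted p from 3.13e-05 to 0.0109. Ppox, at 0.11 (SE 0.14), did not pass. Over all genes 16.8% were called with a larger ratio in pair 2 and 19.0% with a smaller one. The spread in this fit was estimated from replicates 3 and 4 alone (2 residual degrees of freedom), and the test takes the lone replicate 2 libraries to vary like them. In DESeq2 Uros (adjusted p = 0.0610) and Fech (0.196) did not pass, and Fech was also lost without shCxxc5 replicate 3 (0.0774) or shCtrl replicate 3 (0.0609).

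**Figure D3:**
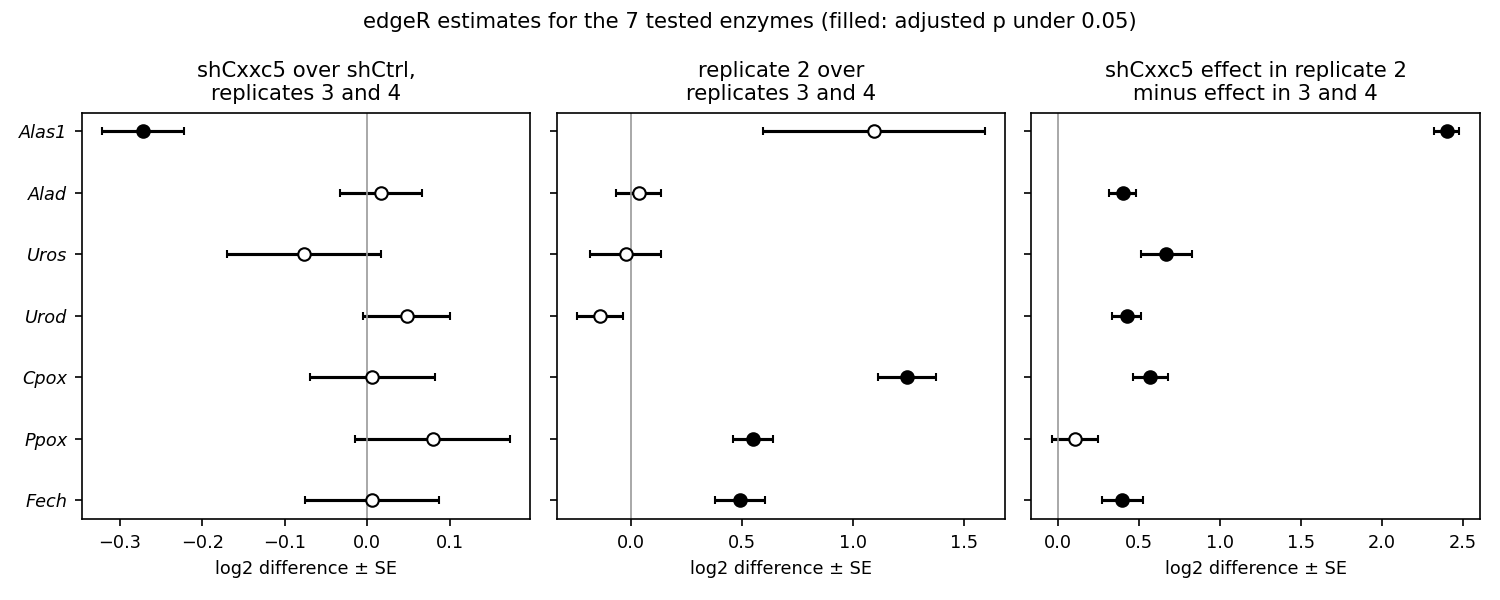
edgeR log2 differences with their standard errors for the 7 tested enzymes in 3 comparisons, each panel with its own scale; filled points have an adjusted p under 0.05. Alas1 alone is filled, at -0.27, for shCxxc5 over shCtrl in replicates 3 and 4; Cpox, Ppox and Fech are filled for replicate 2 over the others; all but Ppox are filled for the difference of the effect.

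In shCxxc5 replicate 2, the library with the high Alas1 value, granulocyte progenitor and mast cell markers were also high. Granulocyte progenitor markers (9 genes) summed to 5796, 1166 and 1171 CPM in shCxxc5 replicates 2, 3 and 4, against 759, 973 and 1011 CPM in shCtrl replicates 2, 3 and 4. Mast cell and basophil markers (8 genes) summed to 1746, 524 and 485 CPM in shCxxc5, against 253, 534 and 552 CPM in shCtrl. Both sums, like Alas1, were by far highest in shCxxc5 replicate 2, and in pair 2 all 9 and all 8 genes were higher there, with median log2 ratios of 2.62 and 2.81. Among them the myeloperoxidase gene Mpo, whose protein carries heme, had 2914 CPM in shCxxc5 replicate 2 and 360.5 CPM in shCtrl replicate 2, and the mast cell protease gene Cpa3 had 749 and 102 CPM in the same libraries. No marker of either list was at 0 in any library. In replicates 3 and 4, where Alas1 fell, 3 of the 9 granulocyte progenitor genes rose and 2 fell, and 3 of the 8 mast cell and basophil genes rose and 4 fell, against 20.0% of all genes called in either direction. Among those that rose were the neutrophil protease gene Prtn3 (0.53, SE 0.03) and the mast cell or basophil protease genes Prss34 (0.77, SE 0.10) and Mcpt8 (0.61, SE 0.08). Of those that fell, Ly6c2 of the granulocyte progenitor list stood at -0.31 (SE 0.11), a call lost in DESeq2 (adjusted p = 0.257). In the mast cell and basophil list the log2 ratios in pairs 3 and 4 were -0.35 and -0.59 for Tpsb2 and -0.42 and -0.47 for Fcer1a. The median log2 ratios in pairs 3 and 4 were -0.01 and 0.03 for the granulocyte progenitor list and 0.08 and -0.11 for the mast cell and basophil list. The part of these cells in the Alas1 values was not tested.

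Erythroid and megakaryocyte markers were high in both replicate 2 libraries, as were Cpox, Ppox and Fech. The 22 erythroid markers summed to 878, 118 and 110.3 CPM in shCxxc5 replicates 2, 3 and 4, against 669, 151 and 150.3 CPM in shCtrl replicates 2, 3 and 4. Of them 15 were tested and all 15 were called higher in replicate 2 (median log2 difference 3.08), with Sptb at 5.69. Of all genes 17.7% were called higher in that comparison. Genes that mark hemoglobin-filling cells were at 0 in part: the band 3 gene Slc4a1 was at 0 in all but shCxxc5 replicate 2, and at least 1 of the alpha globin genes Hba-a1 and Hba-a2 was at 0 in all but that library. In pair 2, 13 of the 15 tested erythroid genes were higher in shCxxc5 (median log2 ratio 1.41), but Gata1 and Sptb were lower. Klf1, an erythroid factor, had 40.4 and 9.51 CPM in shCxxc5 and shCtrl replicate 2. The carbonic anhydrase gene Car1 had 44.9 and 4.56 CPM there, while Gata1 had 80.6 and 136 CPM and Sptb 35.5 and 100.4 CPM. The 15 megakaryocyte markers summed to 1764, 360.0 and 353 CPM in shCxxc5, against 7445, 544 and 539 CPM in shCtrl, the reverse order of Alas1 within pair 2. In replicates 3 and 4, 5 of 15 erythroid and 6 of 12 megakaryocyte markers fell, among them Aqp1 (-0.74), Gata1 (-0.55) and Vwf (-0.93), and 0 rose, where 9.00% of all genes were called lower. DESeq2 called 2 of the 15 erythroid markers there; Gata1 was not called in DESeq2 (adjusted p = 0.0611) or without shCtrl replicate 3 (0.0582). The part of these cells in the enzyme values was not tested.

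**Figure D4:**
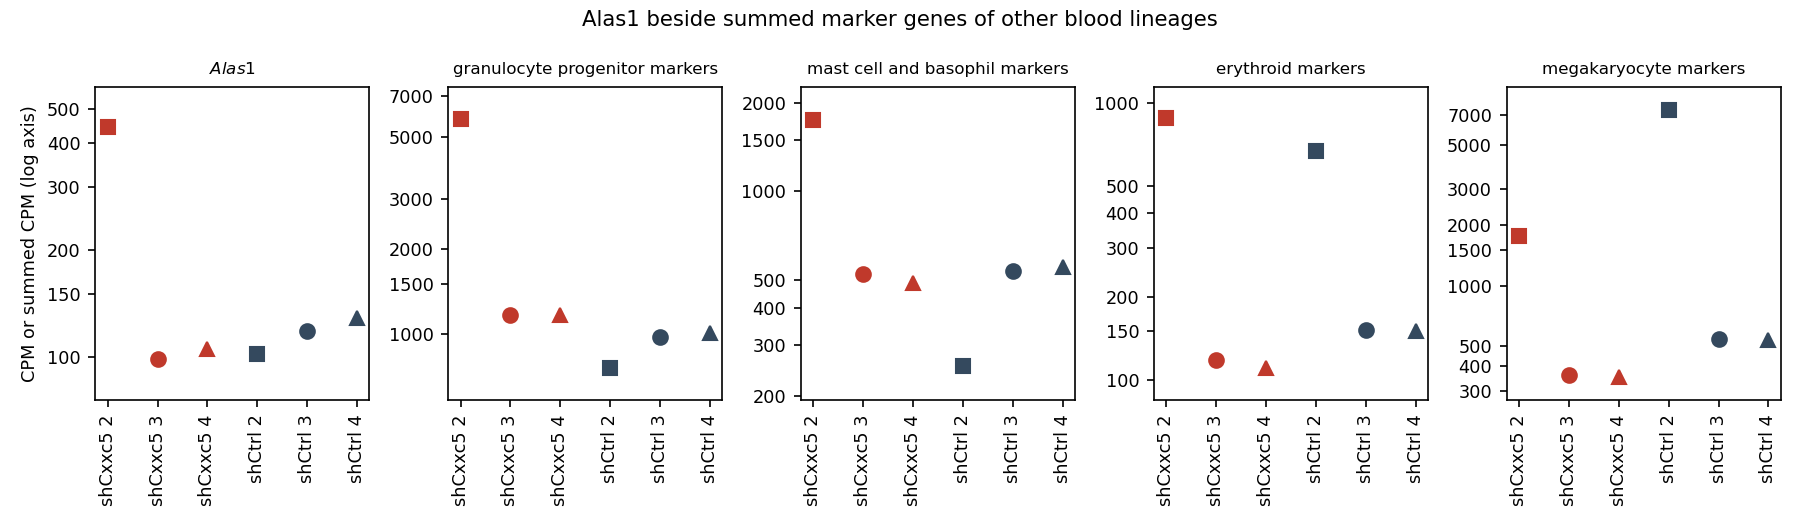
CPM of Alas1 and summed CPM of 4 marker lists in each library (log axes; red shCxxc5, dark shCtrl, shapes for replicate numbers). Alas1 and the granulocyte progenitor and mast cell lists peak in shCxxc5 replicate 2 (443, 5796 and 1746 CPM); the erythroid list is high in both replicate 2 libraries (878 and 669 CPM) and the megakaryocyte list highest in shCtrl replicate 2 (7445 CPM).

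The genes most like Alas1 over the 6 libraries, by the root-mean-square difference of centred log2 CPM among 11105 genes, were Tfec (0.118), Lpcat2 (0.120), Abcd2 (0.138), Dtx4 (0.169) and Il1rl1 (0.177), where the median gene stood at 0.801. Each had a log2 ratio of 1.64 or more in pair 2 and a ratio below 0 in pairs 3 and 4. The genes were chosen by their values in these same libraries, so this likeness is not a further result. For Alas2, which rests on few reads, the nearest were Mogat2 (0.149), Gadd45a (0.222), Gpr141 (0.311), Sgms2 (0.437) and Cited4 (0.451). Among the enzymes themselves, Alad, Uros and Urod were most alike (0.0790 to 0.102 between any 2 of them), Ppox and Fech were alike (0.0817), and Alas1 was nearest to Cpox (0.495).

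Genes that feed, use and break down heme were set beside the enzymes in replicates 3 and 4. Of 13 genes of mitochondrial supply and porphyrin transport 3 rose and 0 fell (median log2 fold change 0.06, against -0.00303 over all genes), a share near the 20.0% of all genes called in either direction, and DESeq2 called 2. They were Suclg2 (0.30, SE 0.05), a subunit of the enzyme that interconverts succinyl-CoA and succinate, Tmem14c (0.24, SE 0.05), which brings protoporphyrinogen into the matrix, and Abcb10 (0.19, SE 0.07), an inner membrane transporter needed for heme synthesis. Suclg2 had 72.9, 84.0 and 87.4 CPM in shCxxc5 replicates 2, 3 and 4. In shCtrl it had 47.6, 69.5 and 69.8 CPM, without overlap, where 6.72% of all tested genes were higher in shCxxc5 without overlap. The call of Abcb10 was lost without each of the 4 libraries in turn (adjusted p from 0.0501 to 0.297).

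Of 12 genes of iron uptake, storage and sensing 3 rose and 1 fell (median 0.06), against 20.0% of all genes called in either direction. The transferrin receptor gene Tfrc had 832, 522 and 496 CPM in shCxxc5 replicates 2, 3 and 4. In shCtrl it had 365, 410.4 and 429.7 CPM, without overlap, as for the 6.72% of all tested genes higher in shCxxc5 without overlap. In replicates 3 and 4 Tfrc rose by 0.28 (SE 0.04, adjusted p = 7.07e-07 in edgeR). Its ratio was larger in pair 2 by 0.91 (SE 0.06), as was that of Alas1. Ireb2, the iron regulatory protein that stabilises Tfrc mRNA, rose by 0.30 (SE 0.07), a call lost without shCtrl replicate 3, where it stood at 0.15. The ferritin heavy chain gene Fth1 fell by 0.19 on the log2 scale (SE 0.04), with 299, 441 and 464 CPM in shCxxc5, against 339, 503 and 531 CPM in shCtrl; both replicate 2 libraries were low.

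Of 9 tested genes of heme use, export and breakdown 1 rose and 2 fell (median 0.02), against the same 20.0% of all genes. Hmox1, the inducible heme oxygenase, had 21.6, 19.8 and 19.4 CPM in shCxxc5 replicates 2, 3 and 4. In shCtrl it had 39.1, 27.1 and 36.5 CPM. Hmox1 fell by 0.67 on the log2 scale in replicates 3 and 4 (SE 0.11, adjusted p = 0.000296 in edgeR). Blvrb, a biliverdin reductase, fell there by 0.57 (SE 0.11), but had 36.2 CPM in shCxxc5 replicate 2 and 24.0 CPM in shCtrl replicate 2. The heme exporter gene Flvcr1 rose by 0.27 (SE 0.06). Without shCxxc5 replicate 3 the calls of Blvrb (-0.42, adjusted p = 0.0548) and Flvcr1 (0.21, adjusted p = 0.0817) were lost.

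Among 14 tested regulators tied to these genes 2 rose and 6 fell in replicates 3 and 4 (median -0.13), where DESeq2 called 3 and 20.0% of all genes were called in either direction. In replicate 2, 8 of them were higher and 0 lower than in replicates 3 and 4, where 17.7% of all genes were called higher. In replicates 3 and 4 Atf4, the stress factor, stood at -0.64 (SE 0.03), Gata1 at -0.55 (SE 0.13) and Klf1 at -0.69 (SE 0.24), the last with an adjusted p of 0.0406 that was lost in DESeq2 (0.238) and without each of the 4 libraries (0.0972 to 0.251). In replicate 2 Gata1 was higher by 3.60 (SE 0.08), and Klf1 and the GATA1 partner gene Zfpm1 by 2.98 and 2.62. The call of Klf1 was lost with no filter on low counts (adjusted p = 0.105 in edgeR). Without shCxxc5 replicate 2 Klf1 stood at 1.44 and Zfpm1 at 3.20, and without shCtrl replicate 2 at 4.23 and 1.94. Atf4 had a log2 ratio of 0.08 in pair 2, which differed from replicates 3 and 4 by 0.73 (SE 0.06).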

How the data were processed

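RNA of 6 LSK cell libraries was sequenced on an Illumina HiSeq instrument after stranded mRNA library preparation, per the labels. Raw read counts per gene were deposited by the authors. The submitters' processing notes name STAR 2.5.2b, featureCounts 1.5.1, DESeq2 and the build GRCm38, without their order; annotation release and strand setting: not given in the sources used here. Symbols came from GENCODE M21 (49326 of 49671 identifiers matched); 22654 genes had 0 counts everywhere. Counts carry no molecular identifiers.

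Counts were compared in R 4.3.3 with edgeR 4.0.16: TMM scaling, filterByExpr, robust quasi-likelihood test, Benjamini-Hochberg adjustment over all tested genes, threshold 0.05. Log2 fold changes are shCxxc5 over shCtrl, or replicate 2 over replicates 3 and 4. SE is the absolute log2 fold change over the square root of F. Log2 CPM of lists had a prior count of 2; enzyme ratios had none. The scripts were tested on simulated counts. Alternatives were DESeq2 1.42.0, other scalings and filters, no robust fit, the replicate block and left-out libraries.

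Libraries of equal number deviated together from their group means (correlations of 0.666, 0.561 and 0.488 for numbers 2, 3 and 4). Numbers 3 and 4 of opposite groups correlated at 0.477 and 0.495. The last value, of shCxxc5 replicate 4 with shCtrl replicate 3, exceeded that of shCxxc5 replicate 4 with shCtrl replicate 4. With number 2 far apart, centring on group means also moves numbers 3 and 4 together. The data thus set number 2 apart but do not pair numbers 3 and 4, and the labels state no pairing. The members and gene lists were chosen with earlier results of these data known. Of each list, up to 3 called genes of largest change per comparison with an average log2 CPM of at least 1 could be named; overlapping genes were named for their position. One enzyme of the pathway is not reported here.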

Additional observations from a re-analysis of the deposited data

Results flagged for a closer look

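The shCxxc5 effect differed between replicate 2 and replicates 3 and 4, by a test of the difference itself in edgeR, for 6 enzymes. The log2 difference, effect in replicate 2 minus effect in replicates 3 and 4, was 2.40 for Alas1, 0.67 for Uros, 0.57 for Cpox, 0.42 for Urod, 0.40 for Alad and 0.40 for Fech. For Alas1 the ratio was above 0 in pair 2 and below 0 in pairs 3 and 4. Of all tested genes 16.8% had a larger and 19.0% a smaller ratio in pair 2 past the threshold.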

How the results depend on the processing

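The 0 enzymes called over all 6 libraries and the 1 called in replicates 3 and 4 were the same under every alternative run, the replicate block included, which gave 3300 genes in replicates 3 and 4 against 2833 without it and changed no call of an enzyme. DESeq2 called 19 genes over all 6 libraries against 0, 1353 in replicates 3 and 4, and 2390 against 5235 for the difference of the effect. Leaving out 1 library gave 0 genes over all 6 libraries, 1507 to 2043 in replicates 3 and 4, and 3183 to 8816 genes and 2 to 7 enzymes for replicate 2 over the others (5330 and 3). The difference of the effect could not be fitted without a replicate 2 library. Scaled to library totals, 3 enzymes near 0 in replicates 3 and 4 changed sign, Alad to -0.0104, Cpox to -0.0212 and Fech to -0.0218, and Uros in replicate 2 over the others changed to 0.0386. Leave-one-out values that crossed 0 ran, over all 6 libraries, from -0.19 to 1.24 for Alas1, -0.38 to 0.71 for Cpox, -0.10 to 0.32 for Ppox and -0.0890 to 0.31 for Fech; in replicates 3 and 4 from -0.0557 to 0.0784 for Alad, -0.0567 to 0.0874 for Cpox, -0.0016 to 0.17 for Ppox and -0.0621 to 0.0923 for Fech; and in replicate 2 over the others from -0.28 to 2.12 for Alas1, -0.17 to 0.23 for Alad, -0.38 to 0.29 for Uros and -0.36 to 0.0661 for Urod. The causes of these shifts were not tested. All 48 within-pair ratios under other scalings stayed inside their counting intervals. Depth limits Alas2, at 1 to 5 counts in 5 libraries.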

Other observations

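Iron-sulfur cluster assembly supplies the cluster that ferrochelatase carries. Of its 15 tested genes, 0 were called in replicates 3 and 4 by edgeR (3 at an unadjusted p under 0.05, and 0 in DESeq2). In replicate 2 over the others Isca1 was higher, by 0.66 (SE 0.15), and Hscb was lower, at -0.38 (SE 0.09), but each call was lost without 3 of the libraries in turn, with adjusted p from 0.0506 to 0.0768. Isca1 stood at 0.94 without shCxxc5 replicate 2 and at 0.34 without shCtrl replicate 2. The iron exporter gene Slc40a1 had 48.1 CPM in shCxxc5 replicate 2 and 7.56 CPM in shCtrl replicate 2, against 3.77 to 4.95 CPM in the other 4 libraries.

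Without a filter on low counts Alas2 could be tested. Its log2 fold change was -1.93 (SE 1.25, adjusted p = 0.461 in edgeR) in replicates 3 and 4, and 2.52 (SE 0.80, adjusted p = 0.0355) in replicate 2 over the others. The replicate 2 value rests on shCxxc5 replicate 2, at 1.63 CPM, since shCtrl replicate 2, at 0.211 CPM, lay between shCtrl replicates 3 and 4. The shCxxc5 effect was larger in replicate 2 than in replicates 3 and 4 by 4.91 (SE 1.34, adjusted p = 0.00227). Of 8 lymphoid markers 2 passed the filter and 0 were called in any comparison by edgeR or DESeq2 (1 at an unadjusted p under 0.05, for the difference of the effect); they summed to 8.74 to 11.5 CPM over the 6 libraries.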
